A study of Mus musculus with 16 samples.

Results

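The Input-only bins are the 461 DNA bins of 25 kb that held at least 20 RNA–DNA pairs in the Input table and no pair in the H3K27me3-RADIP table. They were chosen by these pair counts alone, so their Input level and their absence from H3K27me3-RADIP are the selection itself and were given no test. They made up 1.96% of the 23524 bins with at least 20 Input pairs (95% Wilson interval 1.79 to 2.14%), and 49063 bins were listed in at least 1 of the tables. The set depended on where the bins were cut: a grid moved by 12.5 kb gave 77 bins (0.333%). A bin of the moved grid holds parts of 2 of the authors' bins, and neither part could hold an H3K27me3-RADIP pair. With both neighbouring bins also required to be unlisted, 44 bins (0.187%) were left. Both kinds of library came from PGK12.1 mouse embryonic stem cells (mESCs), grown in serum with leukemia inhibitory factor and fixed with 1% formaldehyde, with no genetic change or drug treatment named in the labels. The H3K27me3-RADIP libraries were selected with an antibody against H3K27me3, whereas the Input libraries were made from a portion of the same kind of lysate without antibody. The labels name 8 libraries for each condition and the methods 4 biological replicates, but the authors merged them into 1 table per condition, which left no replicate spread to compare against, and all intervals given here cover counting error only. In all, 1305107 pairs were listed for Input and 1415135 for H3K27me3-RADIP. The paper reports fewer raw reads for H3K27me3-RADIP than for Input, so the larger number of listed pairs does not mean deeper sequencing. An unlisted bin is not an empty bin: the authors listed an RNA in a bin only if the adjusted *P*-value (q-value) of that RNA and bin was at most 0.1, and each listing in the Input-only bins held at least 7 pairs.

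In RADIP, an RNA and the DNA lying next to it in fixed chromatin are ligated to the ends of a bridge adaptor, and the joined molecules are then selected through a protein or histone mark on the DNA side. H3K27me3, trimethylation of lysine 27 of histone H3, is deposited by Polycomb repressive complex 2 (PRC2) and is known in mESCs for covering the promoters of silent developmental genes. Nascent transcripts remain close to the gene that makes them, so introns of protein-coding RNAs (pcRNAs) contacting DNA in *cis* are the usual bulk of RNA–DNA ligation data.

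To show what DNA lies in these bins, stretches of sequence are printed for promoters and bin centres, 5′ to 3′, in lower case with each CG dinucleotide in capitals. The promoters (RefSeq, GRCm38.p6, 250 bases before to 50 bases after the gene start) are those of *Ezh2*, *Ccdc186* and *Golga1*, which start inside bins with many Input pairs. The *Ezh2* promoter lies at chr6:47594981-47595280 on the minus strand, that of *Ccdc186* at chr19:56822150-56822449 on the minus strand and that of *Golga1* at chr2:39065492-39065791 on the minus strand. The centre sequences are 300 bases of the plus strand from the Input-only bins with the lowest and the highest GC content, chosen after the values were seen and led by *Morc1* (chr16:48937351-48937650) and *Dffb* (chr4:153962351-153962650).
*Ezh2* promoter: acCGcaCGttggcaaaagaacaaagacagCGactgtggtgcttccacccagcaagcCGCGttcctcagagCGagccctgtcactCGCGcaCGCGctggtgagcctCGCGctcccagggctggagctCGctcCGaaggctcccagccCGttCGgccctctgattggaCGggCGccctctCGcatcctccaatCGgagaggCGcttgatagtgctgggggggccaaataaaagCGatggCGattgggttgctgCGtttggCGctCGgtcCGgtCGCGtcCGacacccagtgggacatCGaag
*Ccdc186* promoter: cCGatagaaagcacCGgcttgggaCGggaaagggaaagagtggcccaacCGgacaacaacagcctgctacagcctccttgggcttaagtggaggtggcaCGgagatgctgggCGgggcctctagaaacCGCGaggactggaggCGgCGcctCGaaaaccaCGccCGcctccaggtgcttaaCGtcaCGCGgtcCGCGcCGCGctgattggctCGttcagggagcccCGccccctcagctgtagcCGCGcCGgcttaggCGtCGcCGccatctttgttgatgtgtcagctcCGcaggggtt
*Golga1* promoter: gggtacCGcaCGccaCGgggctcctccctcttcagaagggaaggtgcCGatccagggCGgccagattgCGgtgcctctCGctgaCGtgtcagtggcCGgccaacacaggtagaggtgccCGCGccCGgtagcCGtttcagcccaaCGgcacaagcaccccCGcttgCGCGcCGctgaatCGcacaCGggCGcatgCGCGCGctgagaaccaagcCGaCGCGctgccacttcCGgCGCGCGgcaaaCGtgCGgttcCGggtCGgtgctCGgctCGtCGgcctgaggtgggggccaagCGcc
*Morc1*-led bin centre: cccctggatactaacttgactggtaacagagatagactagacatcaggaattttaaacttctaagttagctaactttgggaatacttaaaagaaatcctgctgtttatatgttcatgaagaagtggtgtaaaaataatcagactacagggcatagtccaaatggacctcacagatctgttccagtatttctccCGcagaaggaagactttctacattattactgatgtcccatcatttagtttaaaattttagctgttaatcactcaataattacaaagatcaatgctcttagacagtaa
*Dffb*-led bin centre: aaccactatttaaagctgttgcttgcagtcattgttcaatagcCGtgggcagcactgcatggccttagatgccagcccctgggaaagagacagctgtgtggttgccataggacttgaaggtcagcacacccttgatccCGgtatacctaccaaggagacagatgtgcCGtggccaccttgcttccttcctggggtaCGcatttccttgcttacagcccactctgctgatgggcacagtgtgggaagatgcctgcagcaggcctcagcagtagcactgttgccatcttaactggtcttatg
The *Ezh2* promoter held 31 CG dinucleotides and had 64.3% GC, although the 25-kb bin around it had 39.5% GC. The *Ccdc186* promoter held 29 and the *Golga1* promoter 39, in bins of 43.6% and 38.5% GC. The centre of the *Morc1*-led bin held 1 CG dinucleotide in a bin of 33.3% GC, and that of the *Dffb*-led bin held 4 in a bin of 50.9% GC. These promoters thus stood out from the bins that contained them. Promoters were not compared with their bins over the whole set, and the CG counts of all its promoters are given with the gene content of the bins.

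The Input-only bins held between 20 and 54 Input pairs, with a median of 23. Most lay near the limit that defined them: 73 bins had exactly 20 pairs, and just outside it 88 bins had 19 Input pairs and none in H3K27me3-RADIP. On the other side of the rule, 6 bins with at least 20 Input pairs had 1 to 7 H3K27me3-RADIP pairs and 482 had 8 or 9. Bins listed in both tables with 20 to 49 Input pairs, 15927 in all, had a median of 30 H3K27me3-RADIP pairs. The share of Input bins not listed in H3K27me3-RADIP fell with the number of Input pairs, from 6.21% (5.54 to 6.96%) of the bins with 20 to 24 pairs to 2.94% at 25 to 29 pairs, 0.600% at 35 to 39 pairs and 0.0420% at 50 pairs or more. The last of these shares stands for 3 of 7139 bins. The mirrored rule, at least 20 H3K27me3-RADIP pairs and no Input pair, found 988 of 25382 bins (3.89%), and within every class of pair count its share was the higher of both. A bin with many pairs in 1 table was therefore rarely missing from the other, in either direction.

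**Figure D1:**
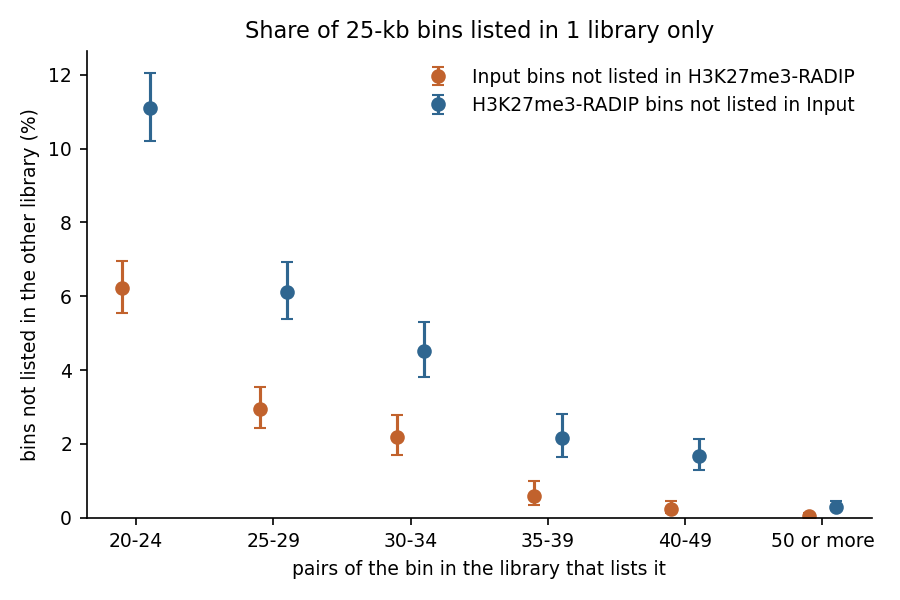
Share of 25-kb bins listed in 1 library only (%, vertical axis) against the number of pairs in the library that lists them (horizontal axis), with 95% Wilson intervals. Both shares fall as pairs rise, from 6.21% to 0.0420% for Input bins missing in H3K27me3-RADIP and from 11.1% to 0.306% for the mirrored case.

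The bin with the most pairs, chr19:56800001-56825000, covered part of *Ccdc186*, a gene of dense-core vesicle maturation. It had 54 Input pairs and no H3K27me3-RADIP pair, of which 32 came from *Ccdc186*, 14 from *Vti1a* and 8 from *Atrnl1*. The *Ccdc186* tags lay a median of 4.91 kb away, whereas those of *Vti1a*, a vesicle fusion protein, lay 1388 kb away. In the next bin towards the start of the chromosome *Ccdc186* had 21 Input and 9 H3K27me3-RADIP pairs, so this RNA was listed in both tables, though not in this bin.

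The bin of *Scai*, which encodes a transcriptional cofactor, had 50 Input pairs (chr2:39050001-39075000). It was contacted by 4 RNAs: *Scai* with 26 pairs, and *Golga1*, *Psmb7* and *Dennd1a* with 8 each. Only 3 Input-only bins had 4 RNAs. Another (chr13:48600001-48625000) lay in the phosphatase gene *Ptpdc1*, with 12 pairs each from *Fam120a* and *Jarid2*. It was assigned to *Fam120a* because ties were settled by name. *Jarid2* encodes a PRC2 cofactor, and its tags were 3728 to 3882 kb away. The remaining bin was led by *Cltc*, the clathrin heavy chain (chr11:86800001-86825000), and lay in the helicase gene *Dhx40*. It had 13 pairs of *Cltc*, 9 each of *Msi2* and *Bcas3* and 8 of *Dhx40*.

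The bin chr6:47575001-47600000 held the start of *Ezh2*, the catalytic subunit of PRC2, and had 26 pairs of *Ezh2* and 16 of its neighbour *Cul1*, a scaffold of ubiquitin ligases. *Ezh2* had 26 Input and 9 H3K27me3-RADIP pairs in the bin before it, and 0 and 9 in the bin after it. *Lcorl*, whose locus encodes a PRC2 accessory protein, was the only RNA in its bin (chr5:45825001-45850000) and had 38 pairs, the most of any leading RNA. *Shprh*, a ubiquitin ligase acting on PCNA at damaged DNA, led adjacent bins with 33 and 26 pairs (chr10:11200001-11225000 and the next bin), and *Utrn* gave 11 pairs to each from over 1 Mb away. *Shprh* had 48 Input and 22 H3K27me3-RADIP pairs in the bin at chr10:11150001-11175000. For *Lcorl* the bins beside it had 13 and 8 Input pairs and no H3K27me3-RADIP pair, and 2 bins before it the counts were 21 and 16. Each of these genes had at least 1 other bin in which its RNA was listed in both tables, with more Input than H3K27me3-RADIP pairs.

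Further bins among the 15 with the most pairs were led by *Strbp* (22 of 47 pairs), *Lrba* (28 of 45), the Hippo kinase gene *Stk3* (29 of 42), *Lnpep* (32 of 41), the nucleoporin gene *Ranbp2* (21 of 41), the Mediator kinase gene *Cdk19* (31 of 39) and the terminal uridylyltransferase gene *Tut4* (16 of 39). All of these except the *Ranbp2*-led bin overlapped the gene of their leading RNA. The *Ranbp2*-led bin lay in the neighbouring gene *Ccdc138*. Within the *Lrba*-led bin the *Lrba* tags were between 0.013 and 385 kb away, spread over much of a gene of 558 kb.

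The most pairs that the leading RNA of an Input-only bin could have had there in H3K27me3-RADIP were read from the table itself. Within an RNA and library each pair count carried a single adjusted *P*-value, which never rose with the count in 73578 H3K27me3-RADIP combinations. The listed lines were taken to be all the pairs of a combination. An RNA unlisted in a bin then had fewer pairs there than the fewest with which it was listed elsewhere. This limit holds for a single RNA, and the pairs of all RNAs together in a bin were not bounded. Of the 461 leading RNAs, counted per bin, 424 were listed in H3K27me3-RADIP elsewhere, and their fewest listed pairs ranged from 7 to 27 with a median of 8. In 413 bins the leading RNA had at least that many Input pairs, and in 11 it had fewer. For *Lcorl* the limit was 8 pairs, so its 38 Input pairs stood against at most 7 in H3K27me3-RADIP, a ratio of 5.43 that was the largest in the set. The ratio of Input pairs to the largest unlisted count had a median of 2 and reached at least 3 in 80 bins. The *Ranbp2* limit was 25, above its 21 Input pairs, so an equal number of pairs could have gone unlisted there. The H3K27me3-RADIP counts below these limits are not known, and for most of the set the tables bound the difference only loosely.

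Input-only bins were mostly isolated and lay within regions listed in both tables. They formed 435 separate runs, of which 24 had more than 1 bin and the longest had 3 bins. The bins of 3 were led by *Pkm* and *Myo9a* on chromosome 9 and by *4930453N24Rik* and *Zfp654* on chromosome 16. An H3K27me3-RADIP pair of some RNA was listed in at least 1 adjacent bin for 417 of the 461 bins and in both adjacent bins for 238. The leading RNA itself was listed in H3K27me3-RADIP in an adjacent bin for 359 bins, and on both sides of the bin at any distance for 286. In Input the same was found for 374 and 303. No H3K27me3-RADIP pair was listed within 10 bins on either side for 4 bins. Since 52 of the 922 places adjacent to an Input-only bin held another Input-only bin, with 0 H3K27me3-RADIP pairs by the rule, these were left out of the sums over flanking bins. In the 870 places left, the mean number of pairs of the leading RNA was 9.97 in Input and 7.65 in H3K27me3-RADIP. Over all RNAs these places held 14991 Input and 11956 H3K27me3-RADIP pairs, a ratio of 0.798, against 0.898 in the places left among the 20 flanking bins and 1.08 over the whole tables. With the other Input-only bins kept, the ratios were 0.732 and 0.871. The ratio was thus lower beside the Input-only bins than in the whole tables, and a bin near several of them entered the sums more than once.

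**Figure D2:**
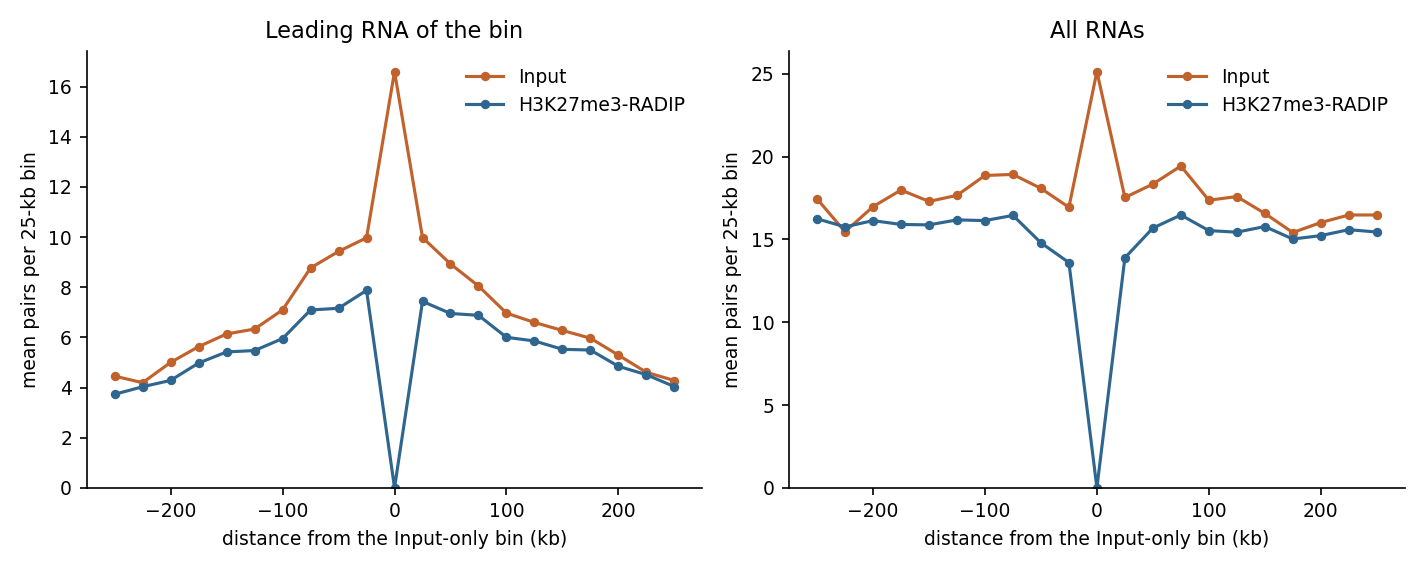
Mean pairs per 25-kb bin (vertical axis) by distance from the 461 Input-only bins (kb, horizontal axis), for the leading RNA of each bin and for all RNAs. The values at distance 0 follow from the selection, and places holding another Input-only bin were left out at the other distances. On the sides before and after the bin, the leading RNA had a mean of 9.97 and 9.98 pairs in Input and 7.87 and 7.43 in H3K27me3-RADIP, and the curves approach each other by 250 kb.

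GC content, which the rule did not use, differed between the sets. The Input-only bins had a median GC content of 40.9% (quartiles 38.7 and 43.2%), compared with 44.5% (41.96 and 47.3%) in bins listed in both tables with 20 to 49 Input pairs and 46.6% (44.4 and 49.1%) in the mirrored H3K27me3-RADIP-only bins. Repeat-masked sequence filled a median of 31.9% of the Input-only bins and 25.02% of the bins listed in both. The Input-only share was 0.406% of Input bins with under 20% masked sequence and 6.16% of those with 40% or more. The mirrored share was 3.85% and 3.83% there, and repeats and GC content were not separated. Of the Input bins with under 38% GC, 89 of 852 were Input-only (10.4%, 8.57 to 12.7%). That share fell in each class of GC content, to 5.22% at 38 to 40%, 3.06% at 40 to 42%, 2.17% at 42 to 44%, 1.05% at 44 to 46%, 0.557% at 46 to 48% and 0.326% (0.203 to 0.521%) at 48% or more. The mirrored share ran the other way, from 0.283% of H3K27me3-RADIP bins under 38% GC to 5.24% at 48% or more. Input-only bins were thus poorer in GC than the bins listed in both. With rising GC content the bins listed only in H3K27me3-RADIP became more frequent.

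The gradient was also present at a fixed number of pairs. Among autosomal bins with 20 to 24 Input pairs, 16.9% (14 to 20.4%) of those under 40% GC were Input-only, 7.18% at 40 to 44%, 2.91% at 44 to 48% and 1.39% (0.776 to 2.47%) at 48% or more. With 35 Input pairs or more the shares were 1.06%, 0.246%, 0.0223% and 0 of 3210 bins, which allows up to 0.120%. Nor was it particular to bins missing from a table. Among the bins listed in both with at least 20 Input pairs, the ratio of summed H3K27me3-RADIP to Input pairs was 0.481 in the 763 bins under 38% GC, 0.733 at 40 to 42%, 0.993 at 44 to 46% and 1.31 in the 5203 bins at 48% or more. The ratio rose in every class of GC content, and the part of base composition in the absence of the 461 bins from H3K27me3-RADIP was not tested.

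**Figure D3:**
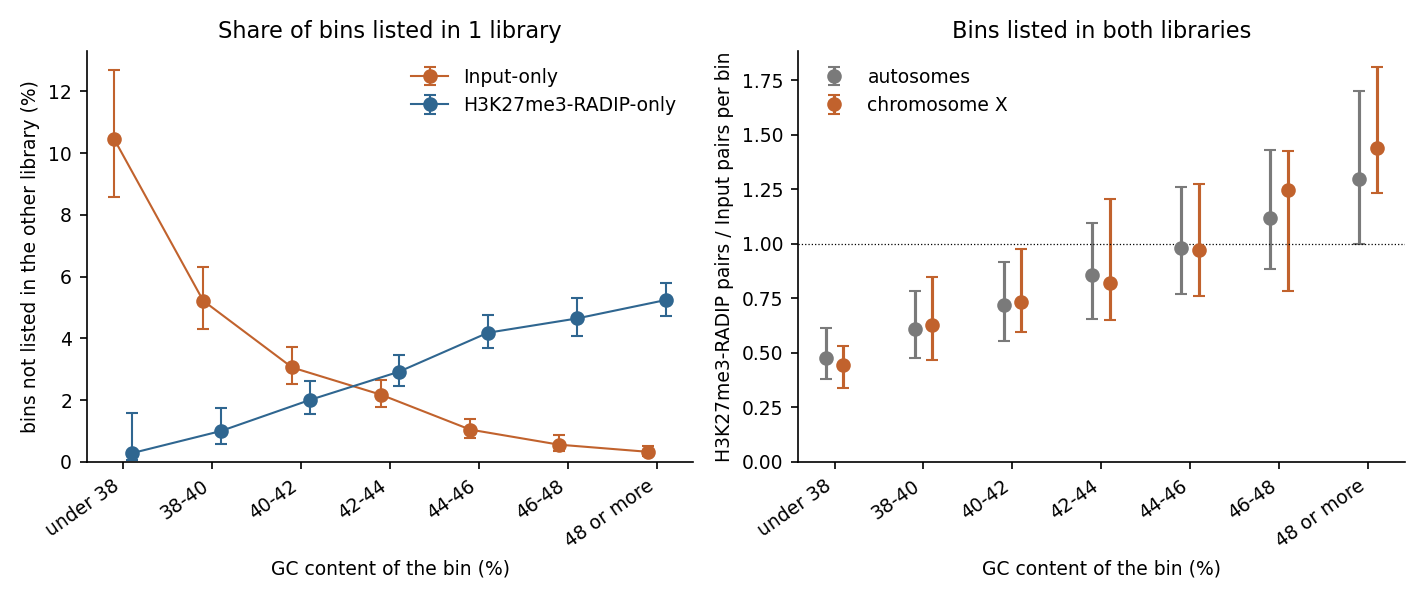
Left, share of bins listed in 1 library only (%) by GC content of the bin, with 95% Wilson intervals. Input-only bins fall from 10.4% to 0.326% with rising GC content, while H3K27me3-RADIP-only bins rise from 0.283% to 5.24%. Right, ratio of H3K27me3-RADIP to Input pairs per bin in bins listed in both with at least 20 Input pairs, as the median with quartiles, on the autosomes and on chromosome X. Both rise with GC content.

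Input-only bins were found on all 19 autosomes and on chromosome X. Chromosome X had the highest share, 39 of 587 bins (6.64%, 4.90 to 8.95%), against 422 of 22936 on the autosomes (1.84%, 1.67 to 2.02%). Chromosomes 16, 3 and 2 followed with 2.97%, 2.95% and 2.92%, which overlapped in their intervals, and chromosome 8 had the lowest share, 0.742% (0.442 to 1.24%). Chromosome X was also the chromosome with the lowest ratio of H3K27me3-RADIP to Input pairs over its whole length, 0.819, compared with 1.09 on the autosomes. The mirrored bins made up 3.84% on chromosome X and 3.89% on the autosomes, without such a difference.

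The higher share on chromosome X was seen at equal pair counts, with 22 of 141 bins (15.6%, 10.5 to 22.5%) at 20 to 24 Input pairs against 5.90% (5.23 to 6.65%) on the autosomes. Chromosome X bins were poorer in GC: its Input-only bins had a median of 38.6% GC and its bins listed in both with 20 to 49 Input pairs 41.0%, compared with 41.1% and 44.6% on the autosomes. Under 38% GC the share was 14.7% (9.24 to 22.5%) on chromosome X and 9.83% (7.89 to 12.2%) on the autosomes. It was 7.94% and 5.02% at 38 to 40% GC, 4.61% and 2.98% at 40 to 42%, 3.81% and 2.13% at 42 to 44% and 2% and 1.04% at 44 to 46%. Chromosome X thus had the higher share in each of these classes, although within each class the intervals overlapped, and the difference at equal GC content was not tested. At 46 to 48% none of 26 bins of chromosome X was Input-only, and at 48% or more 1 of 19. In bins listed in both, the median ratio of H3K27me3-RADIP to Input pairs was lower on chromosome X under 38% GC (0.442 against 0.478), at 42 to 44% (0.821 against 0.857) and at 44 to 46% (0.970 against 0.980). It was higher at 38 to 40% (0.625 against 0.610), at 40 to 42% (0.733 against 0.720), at 46 to 48% (1.25 against 1.12) and at 48% or more (1.44 against 1.30).

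**Figure D4:**
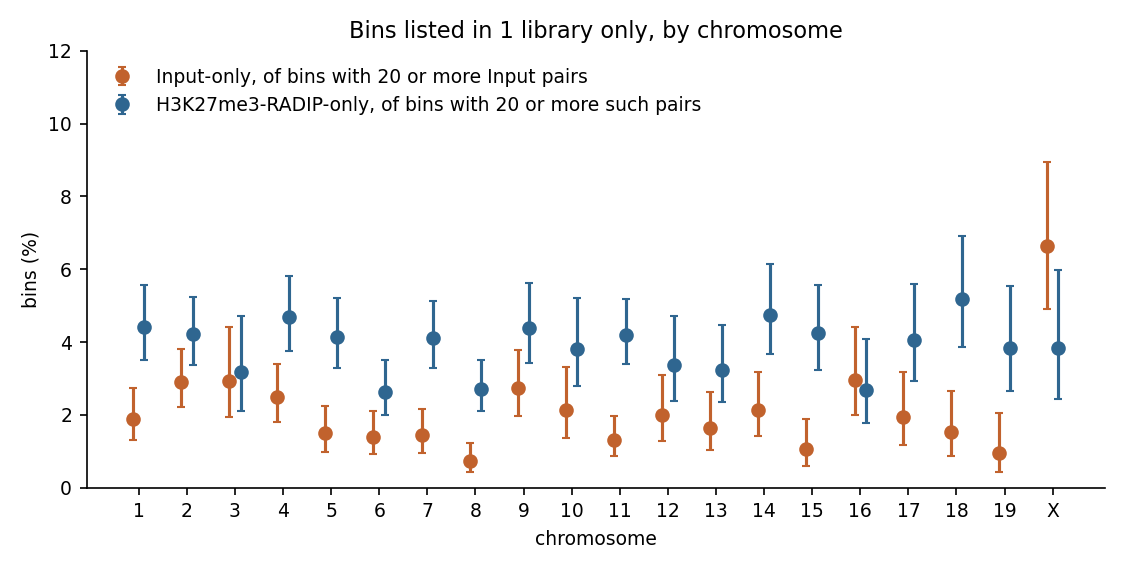
Share of bins listed in 1 library only (%, vertical axis) by chromosome (horizontal axis), with 95% Wilson intervals. Chromosome X had 6.64% Input-only bins, above all autosomes, while its H3K27me3-RADIP-only share of 3.84% lay within the range of the autosomes.

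On chromosome X the 39 bins had 31 different leading RNAs. *Diaph2*, a formin of the actin cytoskeleton, led 3 of them with 35, 29 and 23 pairs, the only RNA in each, and gave the most pairs to Input-only bins of any RNA, 87. Of these bins, 2 were inside the gene of 716 kb and 1 was outside. Outside the Input-only bins *Diaph2* had 1453 Input and 769 H3K27me3-RADIP pairs.

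By gene content, Input-only bins were often at gene starts. A protein-coding gene started in 155 of the 461 bins (33.6%, 29.5 to 38.1%), against 26.1% (25.4 to 26.8%) of the bins listed in both with 20 to 49 Input pairs and 38.97% of the mirrored bins. The bins without any protein-coding gene made up 13.2%, 16.9% and 28.6% in the same order. The gene of the leading RNA had a median length of 94.8 kb, compared with 144 kb in the bins listed in both and 125 kb in the mirrored bins. RefSeq promoters of 300 bases fell into 156 Input-only bins, and these 265 promoters held a median of 21 CG dinucleotides, with at least 10 in 75.1%. Of all 32851 promoters in the table, 43.5% held at least 10, with a median of 7. In bins listed in both with 20 to 49 Input pairs the median was 14 and the share 57.9%, and in the mirrored bins 9 and 49.3%. The letters TATAAA, or TTTATA for the other strand, were found in 6.79% of the promoters in Input-only bins (18 of 265), in 9.13% of those in bins listed in both with 20 to 49 Input pairs, in 9.80% of those in the mirrored bins and in 13.6% of all promoters. The Input-only bins, though poorer in GC than the bins listed in both, thus contained promoters rich in CG, as in the promoter sequences printed above. The promoters were not split by the GC content of their bins, and a letter match says nothing about the use of these promoters.

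The 461 bins held 11584 pairs, 0.888% of the Input table, from 722 RNAs. Of the pairs, 85.5% (84.9 to 86.2%) came from introns of pcRNAs, 4.93% from coding exons, 2.93% from 3′ UTRs and 1.53% from 5′ UTRs. The bins listed in both with 20 to 49 Input pairs had 86.7%, 4.07%, 2.99% and 1.16%, so the composition by region differed little. A bin was contacted by 1 RNA in 106 cases (23.0%, 19.4 to 27.05%), by 2 RNAs in 302 and by 3 in 50. In bins listed in both with 20 to 49 Input pairs, 42.2% had 1 RNA. The share of Input-only bins with 1 RNA was 23.4% on the moved grid, 37.2% with q-values up to 0.01 and 53.8% in 50-kb bins. The bins listed in both were not recomputed under these settings. The number of RNAs is not independent of the rule, since a bin whose pairs are split over several RNAs, each near its listing limit, more easily has none listed. The leading RNA gave 66.1% of the pairs, with a median of 15 pairs per bin.

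The tags of RNA and DNA were a median of 51.1 kb apart in the Input-only bins (quartiles 8.10 and 244 kb), 56.4 kb in the bins listed in both with 20 to 49 Input pairs and 230 kb in the mirrored bins. A median distance over 100 kb, taken as long-range *cis*, was found in 175 Input-only bins (37.96%, 33.6 to 42.5%), in 38.9% of the bins listed in both and in 69.8% of the mirrored bins. The bin lay outside the gene of its leading RNA in 179 cases (38.8%, 34.5 to 43.4%), compared with 39.8% and 71.8%. In both shares the intervals of the Input-only bins held the value of the bins listed in both, whereas the mirrored bins lay far above. On the grid moved by 12.5 kb, the shares of the Input-only bins fell to 23.4% (15.3 to 33.95%) over 100 kb and 26.0% (17.5 to 36.7%) outside the gene, and the bins listed in both were not recomputed on that grid. The longest median distances were 10198 kb for a bin led by *Wwox*, a large oxidoreductase gene of a fragile site (chr8:104500001-104525000), 7558 kb for a bin led by the methyltransferase gene *Smyd3* (chr1:171525001-171550000) and 2814 kb for a bin led by *Kcnq1ot1* (chr7:140475001-140500000). The *Wwox*-led bin had 13 *Wwox* pairs, 9982 to 10762 kb away, beside 8 pairs of the nearby *Cmtm4*.

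**Figure D5:**
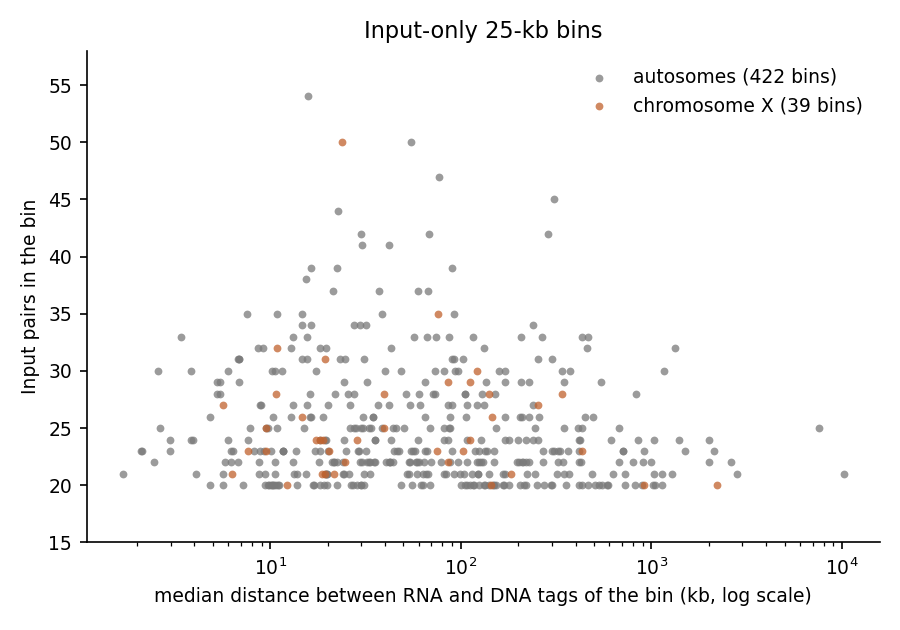
Input pairs (vertical axis) against the median distance between RNA and DNA tags (kb, log scale, horizontal axis) for the 461 Input-only bins, each a point, with the 39 bins of chromosome X in colour. Most points lie close to the limit of 20 pairs, at distances from 1.68 to 10198 kb, and the bin with 54 pairs lies at 15.9 kb.

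Among the RNAs, no single species dominated. In all, 416 different RNAs led the 461 bins, and 38 led more than 1. *Ptprg*, a receptor tyrosine phosphatase, had pairs in the most bins, 6, with 10 to 20 pairs in each and medians between 856 and 1926 kb away. In 4 of these it shared the bin with *Fhit*, a nucleotide hydrolase gene at a fragile site, which led them with 10 to 18 pairs inside its own gene of 1612 kb. *Bnc2*, a zinc finger gene, had pairs in 5 bins. *Ext1*, *Utrn*, *Mad1l1* and *Zranb3* had pairs in 4 bins each. *Ext1*, which builds heparan sulfate chains, led all 4 of its bins, none of them overlapping its gene, with its tags at medians of 628 to 760 kb. *Zfp654*, *Fancl*, *Morc1*, *Cep128*, *Pkm*, *Smyd3* and *Adamtsl1* had pairs in 3 bins each. Outside the Input-only bins, where the counts do not follow from the selection, *Ptprg* had 5390 Input and 5839 H3K27me3-RADIP pairs, *Ext1* 3633 and 3706, *Fhit* 888 and 981 and *Mad1l1* 4215 and 5371. *Bnc2* had 2437 and 2103 there, *Utrn* 1862 and 1616 and *Zranb3* 155 and 133. *Fancl*, a ubiquitin ligase subunit of the Fanconi pathway, had 35 and 28, *Zfp654* 34 and 16, *Shprh* 97 and 33 and *Lnpep* 93 and 12. Among the RNAs named here, the balance outside the set thus ranged from more H3K27me3-RADIP than Input pairs to 12 against 93. In the same bins the median ratio of H3K27me3-RADIP to Input pairs was 0.861 over 390 leading RNAs, compared with 0.941 over all Input RNAs in all bins.

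A group of leading RNAs was missing from H3K27me3-RADIP altogether, in 37 bins. *Ythdc1*, a nuclear reader of m6A in RNA, had 62 Input pairs in 2 bins, 35 of them in an Input-only bin of 36.9% GC in its own gene. *Orc6* of the origin recognition complex had 24 pairs, *Tsg101* of the ESCRT machinery 38, the chaperone gene *Hspa14* 48 and the lipid scramblase gene *Plscr1* 22, all without a listed H3K27me3-RADIP pair. Of the 722 RNAs with a pair in an Input-only bin, 88 (12.2%) were not listed in H3K27me3-RADIP, compared with 1420 of all 10176 Input RNAs (13.95%), so absence of the RNA itself was no more common than in the whole table. The RNAs were not matched by their number of Input pairs, so these shares do not compare RNAs of equal abundance.

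Long non-coding RNAs (lncRNAs) gave 231 pairs (1.99%, 1.76 to 2.27%) and led 9 bins, against 2.51% of the pairs in bins listed in both with 20 to 49 Input pairs and 4.81% in the mirrored bins. *Pvt1*, the lncRNA beside *Myc*, had 32 pairs in 2 bins and was the sole RNA of a bin without a protein-coding gene 913 kb away. *Platr28* followed with 18 pairs, *Snhg14* and *Tsix*, the antisense lncRNA of *Xist*, with 16 each, *9530036O11Rik* with 15, *Junos* with 13, *Malat1* with 12 and *Gm15839*, *Lockd* and *Kcnq1ot1* with 11 each. *Kcnq1ot1*, which silences imprinted genes on its own chromosome, had 5350 Input and 11139 H3K27me3-RADIP pairs over all bins, and its fewest listed H3K27me3-RADIP pairs were 8. *Tsix*, *Kcnq1ot1* and *Snhg14* overlap genes on the opposite strand, and the pairs are named as the authors assigned them.

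*Trans* pairs, with RNA and DNA on different chromosomes, were rare: 31 pairs (0.268%) in 3 bins, so no bin reached 20 of them. *Malat1*, a nuclear speckle lncRNA, gave 12 of them to a bin in *Stmn1*. The small nuclear RNA *Gm22973* gave 10 to a bin in *Rhot1* and 9 to a bin led by *Reep1*.

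Gene lists were compared by how many of their RNAs listed in Input had a pair in an Input-only bin, beside 722 of 10176 (7.10%) over all RNAs. Of 27 Polycomb genes, 4 had such a pair: *Ezh2* (26 pairs), *Eed* (34), *Jarid2* (21) and *Mtf2* (14), all components of PRC2. Outside the Input-only bins *Ezh2* had 70 Input and 52 H3K27me3-RADIP pairs, *Eed* 135 and 63, *Mtf2* 482 and 266 and *Jarid2* 7025 and 7961. *Eed*, which binds H3K27me3, led a bin at chr7:89925001-89950000 in the neighbouring gene *Hikeshi* with all of its 25 pairs. Of 31 genes of cell cycle and replication 7 had a pair, with *Orc4* (38 pairs), *Orc6* (24), *Atr* (23), *Pcna* (20) and *Orc1* (20) having the most. *Pcna*, the replication clamp, had all of its 20 Input pairs in Input-only bins and none in H3K27me3-RADIP. Of 35 RNA processing genes 7 had a pair, among them *Ythdc1* (35), the splicing factor genes *Sf3b1* (32) and *Srsf11* (20), and *Msi2* (21). *Sf3b1* had 55 Input and 19 H3K27me3-RADIP pairs outside the Input-only bins. Of 38 genes of neuronal adhesion and synapse, 1 had a pair: *Tenm4*, with 29 pairs in 3 bins at medians of 3730, 5934 and 17783 kb. The counts were 1 of 19 for pluripotency (*Esrrb*), 1 of 15 for H3K27 demethylases and Trithorax (*Dpy30*) and 5 of 15 for abundant non-coding RNAs (*Malat1*, *Kcnq1ot1*, *Tsix*, *Snhg14* and *Gm22973*). The lists are small, and their counts are described without a test.

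The labelled cell type was compared with markers. Of 8 mESC markers, 4 were listed in Input: *Esrrb* with 2388 pairs, *Tfcp2l1* with 441, *Zfp42* with 130 and *Klf4* with 13, while *Pou5f1*, *Sox2*, *Tdgf1* and *Dppa4* were not listed there. Of 8 fibroblast markers, for feeder cells, *Fn1* was listed in Input with 272 pairs and none had a pair in an Input-only bin. *Esrrb* had 15 pairs in an Input-only bin and was the only mESC marker found there. The defining markers *Pou5f1* and *Sox2* could therefore not be read from the Input table.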

How the data were processed

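The authors joined RNA and DNA tags of PGK12.1 cells by RADIP, mapped them to mm10, with BWA 0.7.15-r1140 named in the submitters' processing notes, annotated RNA tags with GENCODE M25 and merged the libraries of each condition. The deposited q-value of each RNA and 25-kb bin came from a modified CHiCANE model, and pairs with q-values up to 0.1 were kept by the authors. Each line of a table was counted as 1 pair and assigned to the bin holding the centre of its DNA tag. Input-only bins had at least 20 Input pairs and 0 H3K27me3-RADIP pairs. The leading RNA is the one with the most pairs in a bin, and ties were settled by alphabetical order of the names. The members and the gene lists (pluripotency, Polycomb, Trithorax, cell cycle, RNA processing, neuronal, abundant non-coding RNAs, mESC and fibroblast markers) were chosen with earlier results of these data known. Shares have 95% Wilson intervals, and no replicate spread could be had from 1 merged table per condition. Amplified reads are not independent molecules, so intervals cover counting error only. Gene positions came from GENCODE M21, in which 10172 of 10180 Input gene identifiers were found, and GC content and repeat masking from GRCm38.p6. Promoters came from RefSeq. Named bins were the 15 with the most Input pairs and the 3 each with the most RNAs or the largest distances. Named RNAs led these bins, were in the most Input-only bins or had the most pairs there, overall or among lncRNAs, other non-coding RNAs and RNAs unlisted in H3K27me3-RADIP, or were list members with at least 20 pairs. Other bins and RNAs were named after their values were seen, and some items that the rule names are not reported here. Alternatives changed the q-value limit, repeated tag positions, the pair minimum, the bin grid and size, the neighbouring bins, the depth, leading RNAs and chromosome X. The selection was tested on simulated data. Python 3.11.15, numpy 2.4.6, pandas 2.3.3, scipy 1.17.1 and matplotlib 3.10.9 were used.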

Additional observations from a re-analysis of the deposited data

How the results depend on the processing

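The number of Input-only bins (461) was 2763 with at least 10 pairs, 3 with at least 50, 77 with the 25-kb grid moved by 12.5 kb, 174 with 100-kb bins and 44 when both neighbouring bins also had to be unlisted. Their share (1.96%) was 3.17% with q-values up to 0.01, 1.63% with repeated tag positions counted once, 7.66% with at least 10 pairs, 0.0420% with at least 50, 0.333% on the moved grid, 1.55% in 100-kb bins and 0.187% under the neighbour rule. A bin of the moved grid holds parts of 2 of the authors' bins. H3K27me3-RADIP-only bins (988) numbered 3843 with at least 10 pairs, 25 with at least 50, 227 on the moved grid, 590 in 50-kb bins, 262 in 100-kb bins and 136 under the neighbour rule. Bins with 1 RNA (23.0%) were 37.2% with q-values up to 0.01, 79.5% with at least 10 pairs, 0% with at least 50, 53.8% in 50-kb bins and 59.8% in 100-kb bins. Bins outside the leading gene (38.8%) were 45.3% with at least 10 pairs, 0% with at least 50, 26.0% on the moved grid, 34.4% in 50-kb bins, 34.5% in 100-kb bins and 27.3% under the neighbour rule. Intron pairs (85.5%) were 84.8% with q-values up to 0.01, 86.6% with at least 10 pairs, 89.6% with at least 50, 83.4% on the moved grid, 87.7% in 50-kb bins, 87.5% in 100-kb bins and 86.9% under the neighbour rule. Bins with a median distance over 100 kb (37.96%) were 0% with at least 50 pairs, 23.4% on the moved grid and 31.8% under the neighbour rule. The other 38 of these values moved by less than their interval or 1.5 times the count, and none reversed. Among these, drawing H3K27me3-RADIP pairs down to the Input total left every Input-only value as it was, which says nothing about stability, since listed bins held at least 7 pairs. In GC classes, added after seeing the data, the Input-only share under 40% GC (6.86%) was above that at 48% GC or more (0.326%) under each of the 11 alternatives, but both moved. The share under 40% GC was 10.5% with q-values up to 0.01, 22.7% with at least 10 pairs, 0.293% with at least 50, 1.65% on the moved grid, 8.55% in 50-kb bins, 9.03% in 100-kb bins and 0.812% under the neighbour rule. At 48% GC or more it was 0.555%, 0.995%, 0%, 0.0196%, 0.151%, 0% and 0.0192% in the same order. With at least 50 pairs the intervals of both shares overlapped. The causes were not tested. No paired analysis was possible because the libraries of each condition were merged, and for the same reason no replicate could be left out. The pair minimum limits all values, since most bins lay near it.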
